A study of Mus musculus with 22 samples.

Results

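Glutathione transferases are enzymes that join the tripeptide glutathione to reactive, fat-soluble molecules, among them products of lipid oxidation, which can then be exported from the cell. Several members also reduce lipid peroxides, and transcription of many of them is known to respond to oxidants through the factor NRF2, encoded by Nfe2l2, and to aromatic compounds through the Ahr receptor. In the heart they belong to the defences against aldehydes formed when membranes are oxidised. The genes described are Gsta1, Gsta2, Gsta3 and Gsta4 (alpha class), Gstm1, Gstm2 and Gstm5 (mu class), Gstt1 (theta class), Gstp1 (pi class) and the membrane-bound Mgst1, taken by symbol from a table of 23359 genes. All 10 were in the table, and all 10 passed the filter on low values, at least 1 FPKM in at least 2 libraries.

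RNA was sequenced from heart cells of male wild type C57BL/6 mice aged 10 to 14 weeks, so no gene was altered in any group. Cardiac fibroblasts (CF), the cells that build the heart's matrix, came from hearts of mice after 4 days (n = 3) and 10 days (n = 3) of swimming, mice 5 days after MI (n = 2), mice 3 days (n = 3) or 10 days (n = 3) after TAC, sham mice of the 3 day TAC experiment (n = 2), and sedentary mice (n = 3). Cardiomyocytes (CM), the contracting muscle cells, came from sedentary mice (n = 3). The labels give TAC and MI as abbreviations, read here as transverse aortic constriction, which loads the left ventricle with pressure, and myocardial infarction. Whether each library is a different animal is not stated there, and the p-values reflect the spread of these libraries alone, which may be technical.

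Levels are FPKM, which scales fragments to the length of the transcript and the size of the library, and no read counts were used, so absolute depth is unknown. Depth relative to the shallowest library, estimated from the smallest values of 1087 low genes, ranged from 1 to 3.35. The libraries matched their labelled cell type: the summed FPKM of 8 cardiomyocyte markers was 10205 to 13039 in cardiomyocytes and 42.0 to 492 in fibroblasts, and that of 8 fibroblast markers was 126 to 305 in cardiomyocytes and 949 to 3847 in fibroblasts. Expression declined with transcript length more steeply in the TAC and swim libraries (slopes of -0.58 to -0.34 log2 FPKM per doubling of length) and in cardiomyocytes (-0.51 to -0.46) than in the MI, sham and sedentary libraries (-0.20 to -0.13). In every comparison across this split, a difference between the libraries of this kind cannot be told apart from the condition or cell type. The members have short transcripts, with median lengths of 670 to 1176 bases, so results are also given with a smooth trend on length and GC content removed from each library. In bulk samples, fewer cells of a type and less RNA per cell cannot be told apart.

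The genes lie partly in clusters. On mm10, per the table's loci, Gsta4 (chr9:78191966-78209349), Gsta1 (chr9:78230669-78242683) and Gsta2 (chr9:78331020-78347145) neighbour each other, as do Gstm5 (chr3:107877230-107898685), Gstm2 (chr3:107981702-107986436) and Gstm1 (chr3:108012250-108017973). Gsta3 (chr1:21240589-21265559), Gstt1 (chr10:75783813-75798584), Gstp1 (chr19:4035411-4037912) and Mgst1 (chr6:138140537-138156752) lie apart. RefSeq start-site windows of build GRCm38.p6 were matched for 9 of the 10 genes, all except Gsta4. From 250 bases before to 50 bases after the start, they were searched on both strands for TGACNNNGC, the core of the antioxidant response element that NRF2 binds, TGANTCA, the AP-1 motif, and GCGTG, the core bound by the Ahr receptor. The 250 bases upstream of 6 genes are shown: Gsta1, Gsta2 and Gsta3, described as a trio, and Gstm2, Gstm5 and Gstp1, which rose at both times of swimming and of TAC. Expression was not tested against these sequences. Each runs 5′ to 3′ toward the start site, and capitals mark matches.
Gsta1, chr9:78230419-78230668, plus strand: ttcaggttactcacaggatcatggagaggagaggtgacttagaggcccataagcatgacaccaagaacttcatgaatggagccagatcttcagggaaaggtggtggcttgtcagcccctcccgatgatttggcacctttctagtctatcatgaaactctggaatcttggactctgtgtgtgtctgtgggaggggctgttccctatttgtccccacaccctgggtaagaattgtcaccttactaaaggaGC
Gsta2, chr9:78347146-78347395, minus strand: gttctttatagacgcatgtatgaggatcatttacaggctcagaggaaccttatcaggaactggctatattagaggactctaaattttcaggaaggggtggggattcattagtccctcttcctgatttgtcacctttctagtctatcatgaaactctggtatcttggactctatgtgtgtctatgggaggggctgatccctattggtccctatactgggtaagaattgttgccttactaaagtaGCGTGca
Gsta3, chr1:21240335-21240584, plus strand: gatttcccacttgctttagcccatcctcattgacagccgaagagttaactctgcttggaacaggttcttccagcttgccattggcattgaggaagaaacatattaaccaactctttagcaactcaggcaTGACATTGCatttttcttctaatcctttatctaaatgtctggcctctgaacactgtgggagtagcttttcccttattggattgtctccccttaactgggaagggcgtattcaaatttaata
Gstm2, chr3:107986421-107986670, minus strand: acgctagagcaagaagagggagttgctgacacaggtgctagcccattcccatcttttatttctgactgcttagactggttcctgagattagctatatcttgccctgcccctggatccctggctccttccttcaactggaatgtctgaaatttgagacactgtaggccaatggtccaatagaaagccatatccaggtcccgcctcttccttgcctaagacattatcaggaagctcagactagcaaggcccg
Gstm5, chr3:107895604-107895853, plus strand: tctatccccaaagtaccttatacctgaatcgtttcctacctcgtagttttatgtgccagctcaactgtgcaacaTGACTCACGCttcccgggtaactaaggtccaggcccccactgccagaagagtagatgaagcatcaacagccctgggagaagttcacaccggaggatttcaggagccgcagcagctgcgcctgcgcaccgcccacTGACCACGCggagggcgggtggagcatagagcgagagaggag
Gstp1, chr19:4037913-4038162, minus strand: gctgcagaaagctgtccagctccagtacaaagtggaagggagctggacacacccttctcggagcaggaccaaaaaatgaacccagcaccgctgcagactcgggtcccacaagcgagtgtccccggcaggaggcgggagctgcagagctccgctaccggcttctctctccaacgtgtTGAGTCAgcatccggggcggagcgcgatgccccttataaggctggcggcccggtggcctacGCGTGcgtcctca
In Gsta1 and Gsta2 a GCGTG lay next to the start, and in Gsta1 its last letters fall outside the stretch shown. These stretches were 73.0% identical, against 55.5% for Gsta1 with Gsta3 and 54.8% for Gsta2 with Gsta3. Gsta3 instead held TGACATTGC, an antioxidant core, beginning 121 bases before its start. In Gstm5, whose RefSeq start lies inside the table's locus, an AP-1 match and an antioxidant core each overlap a GCGTG read on the other strand, Gstp1 held an AP-1 match and a GCGTG, and Gstm2 held none of the 3 motifs. Of the windows not shown, Mgst1 held an antioxidant core on the other strand, Gstm1 held GCGTG, and Gstt1 held none of the 3 motifs. Among all 32544 windows of this length, 12.4% held the antioxidant core, 7.79% the AP-1 motif and 32.6% GCGTG, and a match describes these letters only.

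In sedentary fibroblasts the levels per transcript length covered a wide range. Gstm1, a major cytosolic mu class enzyme, stood highest at 48.7 ± 3.40 FPKM (SD, n = 3), above every library of the other members. Gstm2 at 19.9 FPKM overlapped both Mgst1 at 19.6 and Gstp1 at 15.9 FPKM, while every Mgst1 library lay above every Gstp1 library. Gstt1 at 7.40 and Gsta3 at 6.68 FPKM overlapped. Below them lay Gstm5 at 3.05 FPKM, then Gsta2 at 1.53 and Gsta1 at 1.43 FPKM, which overlapped. Gsta4, whose enzyme prefers the lipid aldehyde 4-hydroxynonenal, was lowest at 0.719 FPKM. The summed FPKM of the 10 genes was 302 to 435 in 4 day and 276 to 373 in 10 day swim libraries, 48.7 to 61.3 in MI libraries, 185 to 209.9 in 3 day and 132 to 159 in 10 day TAC libraries, 133 to 147 in sham libraries and 119 to 134 in sedentary libraries. By this sum of unscaled FPKM the swim libraries were highest and the MI libraries lowest, with no overlap with any other fibroblast group. Total FPKM over all genes was not equal between libraries. It was higher in every swim and TAC library than in every MI, sham and sedentary fibroblast library, while both MI totals lay within the sedentary range. The sums were not taken as shares of these totals, and the part of the totals in this order was not tested.

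**Figure D1:**
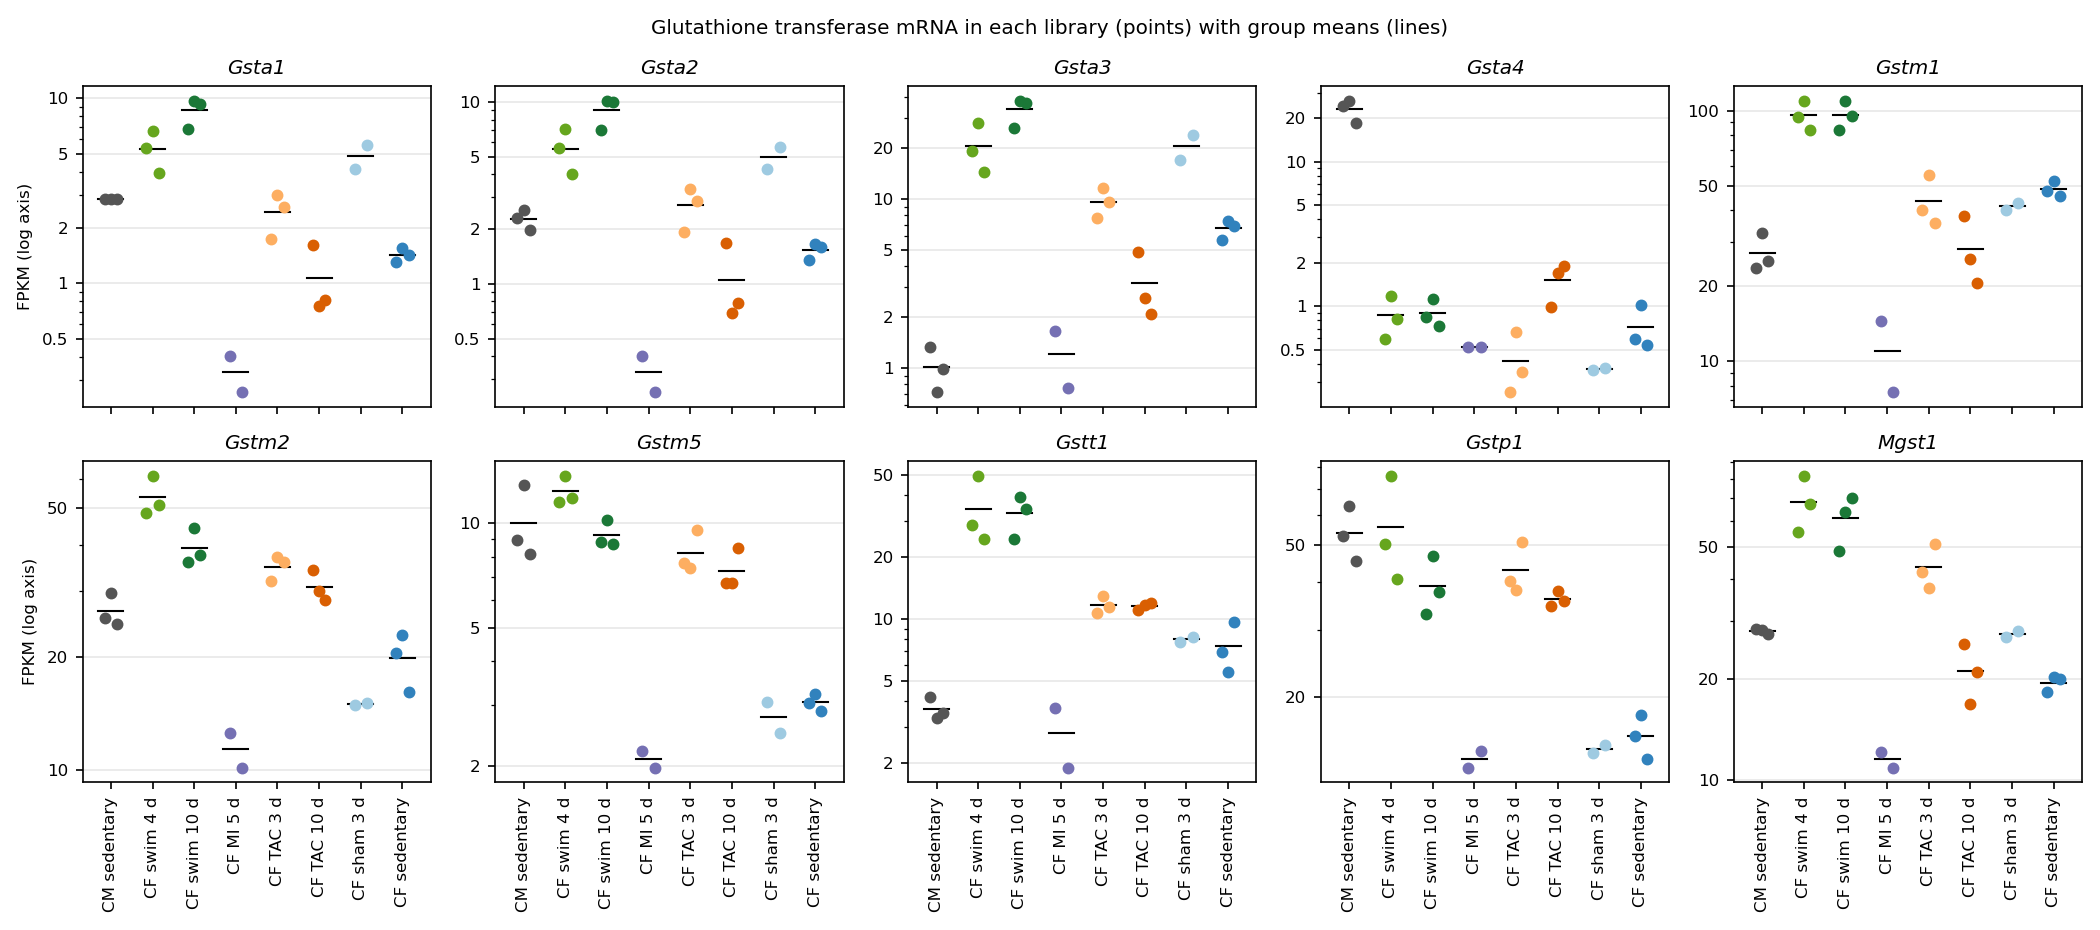
FPKM (log axis) of each transferase in every library, by group of cardiomyocyte (CM) or fibroblast (CF) libraries; points are libraries and short lines are group means. Gsta3 stands at 26.1 to 38.2 FPKM after 10 days of swimming and 0.756 to 1.65 FPKM after MI, and Gsta4 reaches 18.6 to 26.5 FPKM in cardiomyocytes.

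The make-up of this sum also differed between groups. Gstm1 supplied 27.5% ± 2.18 of it after 4 days and 29.3% ± 1.24 after 10 days of swimming (SD, n = 3 each), 19.6% ± 5.83 after MI (n = 2), 21.8% ± 4.91 after 3 days and 19.5% ± 4.10 after 10 days of TAC (n = 3 each), 29.7% ± 0.813 after sham (n = 2) and 39.0% ± 0.458 in sedentary fibroblasts (n = 3). The mean sedentary share was above that of every other group. The alpha class trio of Gsta1, Gsta2 and Gsta3 held 15.5% ± 1.04 after 10 days of swimming and 21.6% ± 3.33 after sham, against 7.72% ± 0.747 in sedentary fibroblasts, while it held 3.31% ± 0.997 after MI and 3.63% ± 1.29 after 10 days of TAC. Gstp1, the pi class enzyme, which also binds the stress kinase JNK, held 30.0% ± 1.35 in cardiomyocytes and 12.7% ± 0.955 in sedentary fibroblasts.

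**Figure D2:**
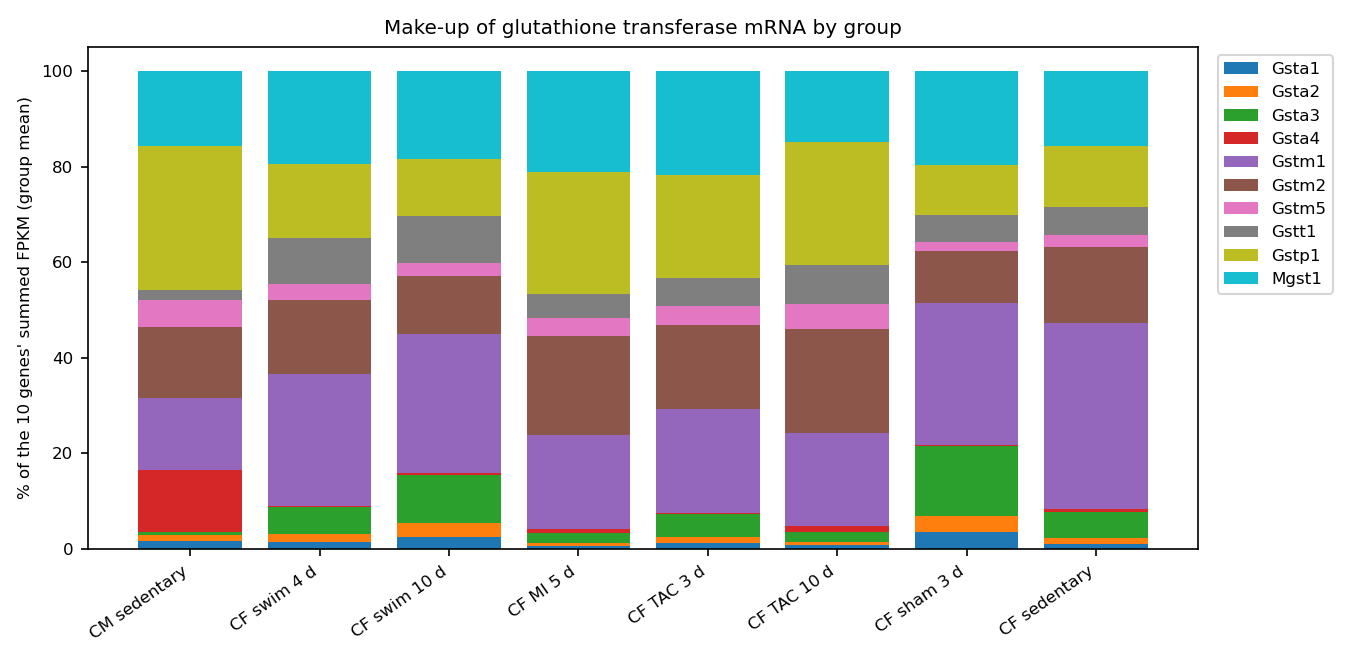
Mean percentage of the 10 genes' summed FPKM held by each gene, by group, with cardiomyocytes (CM) and fibroblasts (CF). Gstm1 holds 39.0% in sedentary fibroblasts, and Gsta4 holds 12.9% in cardiomyocytes and a thin band elsewhere.

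Swimming was compared with sedentary life, an exercise comparison. Nearly all transferases rose in fibroblasts of swimming mice, in comparisons that cross the split in length slopes. After 4 days 9 of the 10 were called higher and 0 lower (limma, adjusted p under 0.05), where 38.2% of all 9425 genes tested were called higher and 26.3% lower. After 10 days 9 were higher and 0 lower, where 30.0% of all genes were higher and 13.6% lower. The members' median log2 fold change was 1.42 after 4 days and 1.46 after 10 days, against 0.13 and 0.14 over all genes. Fold changes are on the scale of log2(FPKM + 1), which understates those of low genes. Every call held when any library was left out.

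The alpha class trio rose at both times, with the larger fold changes at 10 days. Gsta1, whose enzyme reduces lipid hydroperoxides, had 5.40, 6.64 and 3.97 FPKM in the 4 day and 6.81, 9.73 and 9.38 FPKM in the 10 day swim libraries, against 1.31, 1.55 and 1.42 FPKM in the sedentary ones (log2 fold change 1.36 ± 0.20 and 1.98 ± 0.20, SE; limma adjusted p 2.01e-05 and 2.01e-05). Gsta3, whose enzyme detoxifies aflatoxin in mice, had 19.3, 28.2 and 14.4 FPKM at 4 days and 26.1, 38.2 and 37.1 FPKM at 10 days, against 5.74, 7.36 and 6.93 FPKM (1.45 ± 0.27 and 2.17 ± 0.27; adjusted p 0.000207 and 3.23e-05). Every swim library of both genes lay far above the highest sedentary library. Gsta2, an alpha class enzyme close to Gsta1 in sequence, followed it (1.34 ± 0.21 and 1.98 ± 0.21). Gsta4 was the exception, with 0.593, 1.18 and 0.824 FPKM at 4 days and 0.849, 1.12 and 0.737 FPKM at 10 days, against 0.592, 1.02 and 0.541 FPKM. Its groups overlapped (0.12 ± 0.16 and 0.15 ± 0.16; adjusted p 0.525 and 0.452).

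Outside the alpha class, Gstt1, a theta class enzyme that acts on small halogenated molecules, rose most. It had 28.7, 49.5 and 24.4 FPKM at 4 days and 24.5, 39.1 and 34.2 FPKM at 10 days of swimming, against 6.96, 5.52 and 9.72 FPKM in sedentary libraries (2.03 ± 0.26 and 2.01 ± 0.26, SE). Mgst1, a membrane enzyme of the endoplasmic reticulum and mitochondria, had 55.3, 81.8 and 67.2 FPKM at 4 days and 48.7, 63.7 and 70.4 FPKM at 10 days, against 18.3, 20.3 and 20.0 FPKM (1.73 ± 0.20 and 1.58 ± 0.20). All swim libraries of both genes lay above all sedentary ones by a wide margin. Gstp1 averaged 55.6 ± 18.1 FPKM at 4 days and 39.2 ± 6.96 FPKM at 10 days, against 15.9 ± 2.10 FPKM (SD, n = 3 each), and Gstm1 averaged 96.2 ± 12.9 and 96.2 ± 12.9 FPKM, against 48.7 ± 3.40 FPKM. The other mu class genes rose too, Gstm2 by 1.39 ± 0.17 at 4 days and 0.95 ± 0.17 at 10 days and Gstm5 by 1.72 ± 0.15 and 1.34 ± 0.15.

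With the length and GC trend removed, 8 of the 10 genes were called higher at 4 days, where 38.4% of all genes were, and 9 at 10 days, where 29.2% were, Gstm1 at 4 days having an adjusted p of 0.0583. With the trend on each gene's longest transcript, chosen after seeing the data, 7 were higher and 1 lower at each time, where 37.1% of all genes were higher and 16.4% lower at 4 days, and 27.8% higher and 6.10% lower at 10 days. Gsta2 and Gstm1 then lost their calls at 4 days and Gstm1 and Gstm2 at 10 days, and Gsta4 became lower, at -0.76 and -0.44. The summed FPKM of 5 erythroid markers was 11536 to 36925 at 4 days and 351 to 10692 at 10 days of swimming, against 55.4 to 7929 in sedentary libraries, with at most 1 marker at 0. Fibroblast markers summed to 2658 to 3847 FPKM at 4 days and 3241 to 3726 FPKM at 10 days, against 2092 to 2699 FPKM, and endothelial markers to 30.5 to 33.8 FPKM and 42.2 to 60.4 FPKM, against 62.9 to 85.6 FPKM, with none of 8 at 0 in either list. Mural cell markers, none of 7 at 0, summed to 11.1 to 15.7 FPKM and 15.1 to 22.6 FPKM, against 23.0 to 32.1 FPKM. Markers of macrophages, 7 of 8 of them in the table and none at 0, summed to 734 to 977 FPKM at 4 days and 490.2 to 614 FPKM at 10 days, against 341 to 427 FPKM. Their mean log2(FPKM + 1) overlapped at both times, at 4.42 to 4.71 and 4.09 to 4.55, against 3.84 to 4.52. That of mural cell markers overlapped at 10 days, at 1.37 to 1.69 against 1.64 to 1.84. The part of these cells in the result was not tested.

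**Figure D3:**
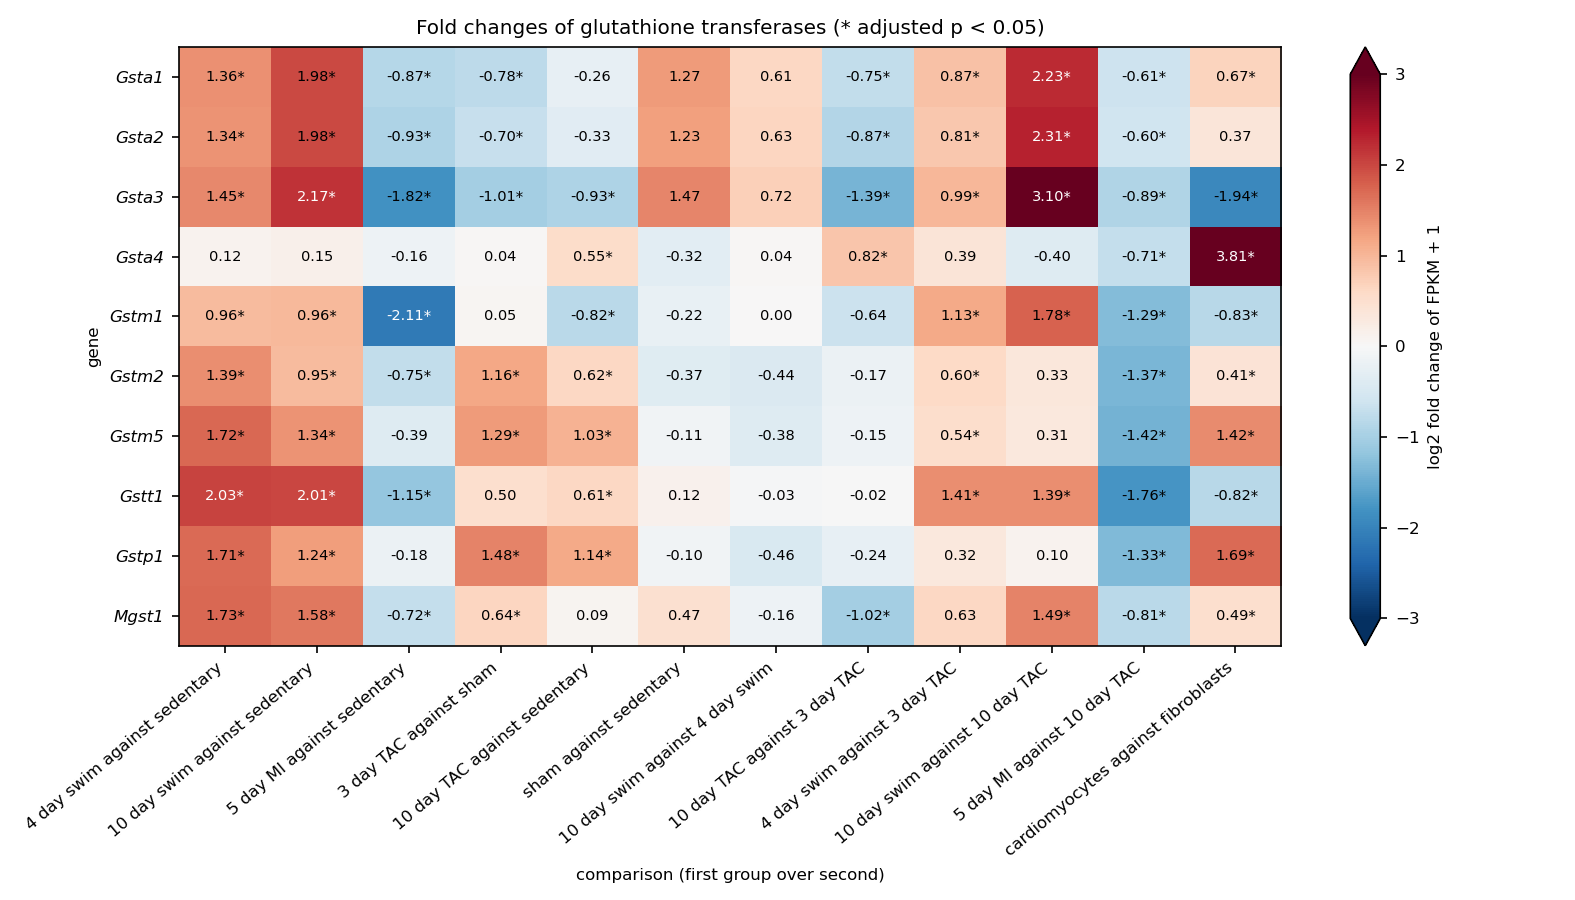
Log2 fold changes of FPKM + 1 for the 10 genes (rows) in each comparison (columns, first group over second), coloured from lower (blue) to higher (red), with stars at limma adjusted p under 0.05. Both swim columns against sedentary are starred in every gene except Gsta4, 7 genes are starred lower after MI, and Gsta4 reaches 3.81 in cardiomyocytes.

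Between 10 and 4 days of swimming, 0 members were called higher and 0 lower by limma, where 0.0106% of all genes were called higher and 0.308% lower. At an unadjusted p under 0.05 there were 6 of the 10. The last of these, Gstp1, ranked 1892 of 9425 genes by p, so at least 1892 genes passed that unadjusted threshold. Gsta1 averaged 8.64 ± 1.59 FPKM at 10 days and 5.34 ± 1.33 FPKM at 4 days (SD, n = 3 each), a log2 difference of 0.61 ± 0.20 (SE, limma adjusted p 0.142), and every 10 day library lay above every 4 day library. Gsta2 and Gsta3 differed by 0.63 and 0.72 with overlapping libraries. Gstm2, Gstm5 and Gstp1 differed by -0.44, -0.38 and -0.46. Erythroid, macrophage and endothelial marker sums of these groups did not overlap. The mean log2(FPKM + 1) of the macrophage markers did, at 4.09 to 4.55 at 10 days and 4.42 to 4.71 at 4 days. The part of these cells in the result was not tested.

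TAC, a model of pressure overload, was compared with sham surgery at 3 days. Gstp1 and Gstm5 rose and the alpha class trio fell. In all, 4 of the 10 genes were called higher and 3 lower than after sham, where 31.3% of all genes were called higher and 25.8% lower, so the members' shares stood near those of all genes. Gstp1 had 40.4, 38.1 and 50.9 FPKM after TAC, against 14.3 and 15.1 FPKM after sham (1.48 ± 0.23, SE; limma adjusted p 5.20e-05), and Gstm5 had 7.66, 7.41 and 9.57 FPKM, against 3.06 and 2.48 FPKM (1.29 ± 0.17). TAC libraries of both lay above both sham libraries, as they did for Gstm2 (1.16 ± 0.19) and Mgst1 (0.64 ± 0.22, a call that was lost without either sham library or without 3 day TAC replicate 3). Gsta3 had 7.76, 11.5 and 9.63 FPKM after TAC, against 17.1 and 23.9 FPKM after sham (-1.01 ± 0.31, adjusted p 0.00943), and Gsta1 and Gsta2 differed by -0.78 ± 0.22 and -0.70 ± 0.24, with all TAC libraries below both sham libraries. Fibroblast markers, none of 8 at 0, summed to 1120.2 to 2066 FPKM after TAC, against 2583 to 3024 FPKM after sham, and mural cell markers, none of 7 at 0, to 11.6 to 15.2 FPKM, against 20.1 to 25.2 FPKM. The mean log2(FPKM + 1) of the fibroblast markers overlapped, at 6.47, 6.74 and 6.13, against 6.61 and 6.70. The part of these cells in the result was not tested.

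Those lower calls rest on the sham group. Without sham replicate 2, 0 of the 3 were called lower, and without 3 day TAC replicate 1 the Gsta2 call was lost. Against sedentary fibroblasts, a comparison added after seeing the data, 7 of the 10 genes were higher at 3 days of TAC and 0 lower, where 36.5% of all genes were higher and 22.7% lower. The directions of the trio then turned, with Gsta1 at 0.49 ± 0.20, Gsta2 at 0.53 ± 0.21 and Gsta3 at 0.46 ± 0.27 (SE; limma adjusted p 0.0442, 0.0393 and 0.156). Gstp1, Gstm5 and Gstm2 kept theirs, at 1.38 ± 0.21, 1.18 ± 0.15 and 0.79 ± 0.17. With the length and GC trend removed, Gsta1, Gsta2 and Gstt1 lost their calls against sedentary fibroblasts (limma adjusted p 0.0799, 0.0705 and 0.313), and Gsta4 was lower, at -0.44 (adjusted p 0.0186).

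At 10 days of TAC 5 of the 10 genes were called higher and 2 lower than in sedentary fibroblasts, where 38.8% of all genes were called higher and 27.0% lower. Gstp1 had 34.7, 37.9 and 35.8 FPKM after TAC, against 15.9, 18.0 and 13.8 FPKM in sedentary libraries (1.14 ± 0.21, SE; limma adjusted p 0.000151), and Gstm5 had 6.72, 6.73 and 8.47 FPKM, against 3.04, 3.22 and 2.87 FPKM (1.03 ± 0.15). TAC libraries of both lay well above all sedentary libraries. Gstm2 was higher by 0.62 ± 0.17 and Gstt1 by 0.61 ± 0.26 (adjusted p 0.0450), the Gstt1 call being lost without sedentary replicate 1 or 2 or any 10 day TAC library. Gsta3 fell to 4.86, 2.58 and 2.07 FPKM, against 5.74, 7.36 and 6.93 FPKM (-0.93 ± 0.27), and Gstm1 fell to 37.9, 25.7 and 20.6 FPKM, against 47.9, 52.5 and 45.8 FPKM (-0.82 ± 0.24). All TAC libraries of these genes lay below all sedentary ones. Without 10 day TAC replicate 1, Gsta2 was called lower as well.

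With the length and GC trend removed, 4 genes were called higher at 10 days of TAC and 1, Gstm1, lower, where 37.3% of all genes were higher and 21.9% lower. With the trend on the longest transcript, 1, Gstm5, was higher and 3 were lower, Gsta1, Gsta2 and Gstm1, where 37.2% of all genes were higher and 18.4% lower. Fibroblast markers summed to 949 to 1722 FPKM at 10 days of TAC, against 2092 to 2699 FPKM in sedentary libraries. None of the 8 was at 0, and their mean log2(FPKM + 1) overlapped, at 6.74, 6.36 and 6.06, against 6.63, 6.48 and 6.40. Their part in the result was not tested.

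**Figure D4:**
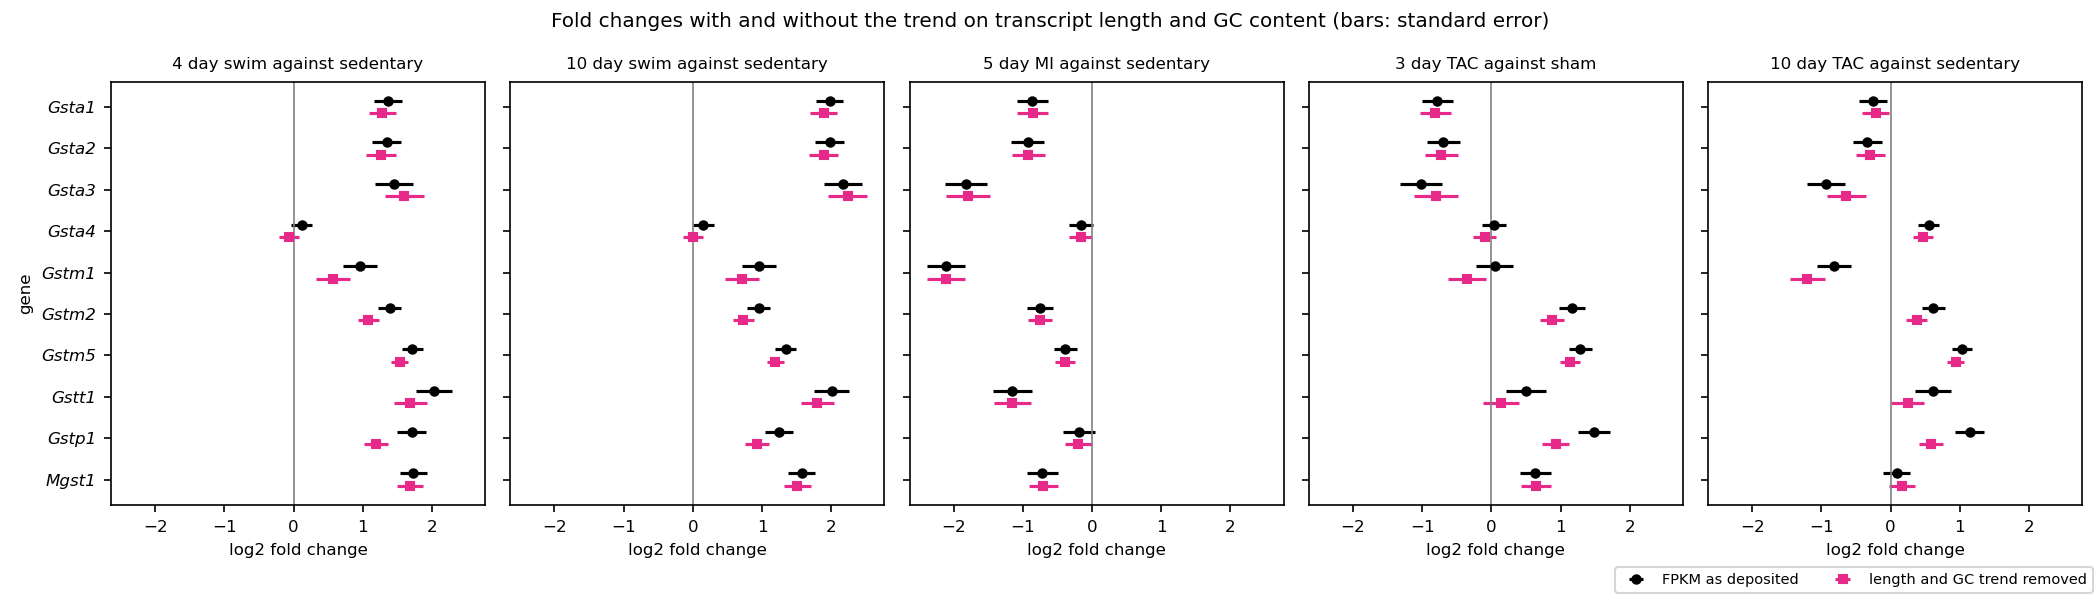
Log2 fold changes (x axis) of each gene (y axis) in 5 comparisons, from FPKM as deposited (black circles) and with the length and GC trend removed (pink squares); bars are standard errors. At 10 days of TAC Gstp1 is at 1.14 as deposited and 0.58 with the trend removed, and after MI Gstm1 is at -2.11 and -2.12.

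Gsta4 also rose at 10 days of TAC. It had 0.988, 1.69 and 1.92 FPKM, against 0.592, 1.02 and 0.541 FPKM in sedentary libraries (0.55 ± 0.16, SE; limma adjusted p 0.00525), and the lowest TAC library lay just under the highest sedentary one. Cardiomyocyte markers, none of 8 at 0, summed to 408, 123 and 492 FPKM in these TAC libraries, against 132, 244 and 42.0 FPKM in the sedentary ones, and their part in the rise was not tested. With the trend on the longest transcript the sign of Gsta4 turned, to -0.11.

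The time courses of the alpha class genes under TAC and swimming ran apart. At 10 against 3 days of TAC 1 of the 10 genes was called higher and 4 lower, where 4.42% of all genes were called higher and 2.18% lower. Gsta3 averaged 3.17 ± 1.49 FPKM at 10 days and 9.63 ± 1.88 FPKM at 3 days (SD, n = 3 each; -1.39 ± 0.27, SE; limma adjusted p 0.00501), and Mgst1 averaged 21.2 ± 4.35 and 43.6 ± 6.82 FPKM (-1.02 ± 0.20). Gsta1 and Gsta2 fell by 0.75 and 0.87 on the log2 scale, calls that were lost without replicate 2 or 3 of either time, when 2 genes were called lower. Gsta4 rose by 0.82 ± 0.16. The 10 day libraries lay below all 3 day libraries in 5 of the 10 genes, the 4 called lower and Gstp1, as they did in 16.1% of all genes, and above them in 1, Gsta4, as in 14.2% of all genes. Endothelial markers, none of 8 at 0, summed to 73.6 to 142 FPKM at 10 days and 28.2 to 48.2 FPKM at 3 days, and mural cell markers, none of 7 at 0, to 23.8 to 40.4 FPKM and 11.6 to 15.2 FPKM. Their part in the result was not tested.

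The change from 3 to 10 days of TAC minus that from 4 to 10 days of swimming was called lower for 3 of the 10 genes and higher for 1, where 1.86% of all genes were called lower and 4.31% higher. It was -1.36 ± 0.28 for Gsta1, -1.50 ± 0.30 for Gsta2 and -2.11 ± 0.39 for Gsta3 (SE, log2; limma adjusted p 0.0112, 0.00937 and 0.00544), calls that held when any library was left out. For Gsta4 it was 0.79 ± 0.22 (adjusted p 0.0431), a call that was lost without 10 day swim replicate 1 or 3, 4 day swim replicate 2, 10 day TAC replicate 2 or 3, or 3 day TAC replicate 1 or 3. The other 6 genes did not pass the test.

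**Figure D5:**
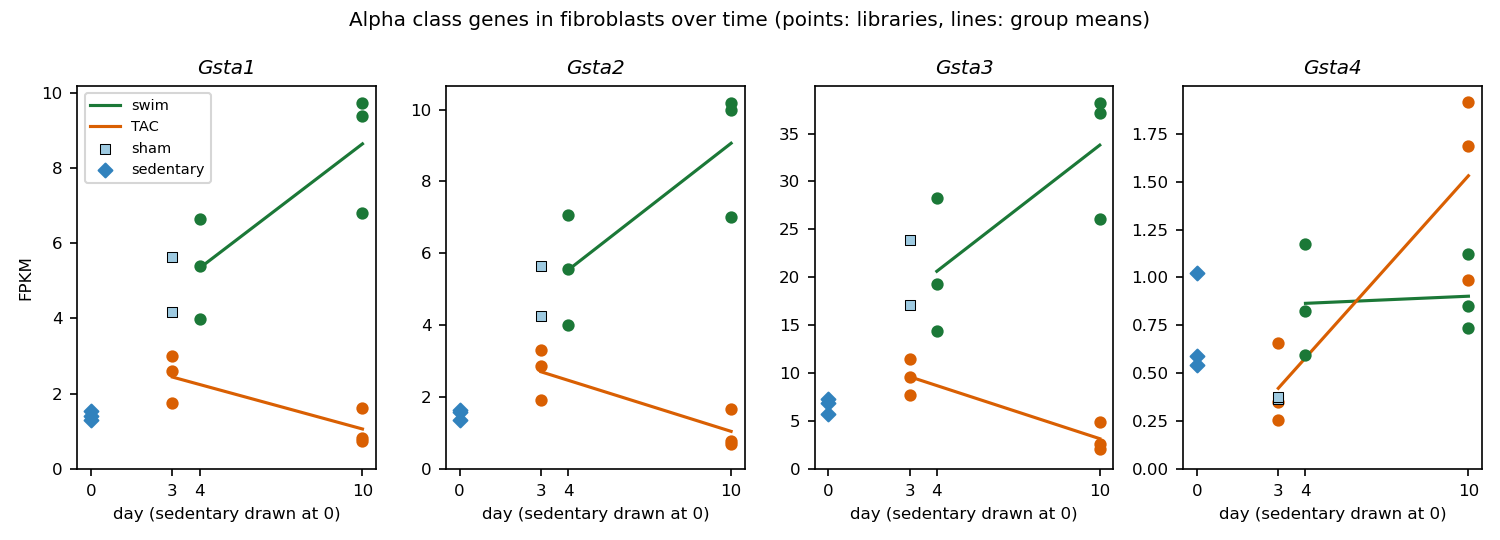
FPKM of Gsta1, Gsta2, Gsta3 and Gsta4 (y axis) against day (x axis) in fibroblasts after swimming (green) and TAC (orange), with sham libraries (squares) at day 3 and sedentary libraries (diamonds) drawn at 0; points are libraries and lines join group means. Gsta3 stands at 26.1 to 38.2 FPKM after 10 days of swimming and 2.07 to 4.86 FPKM after 10 days of TAC, while Gsta4 ends at 0.737 to 1.12 and 0.988 to 1.92 FPKM.

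Sham and sedentary fibroblasts, the controls of the study, were compared with each other, and the trio stood higher after sham without passing the test. Gsta1 had 4.17 and 5.62 FPKM after sham, against 1.31, 1.55 and 1.42 FPKM in sedentary libraries (1.27 ± 0.22, SE), Gsta2 had 4.27 and 5.66 FPKM, against 1.35, 1.65 and 1.60 FPKM (1.23 ± 0.24), and Gsta3 had 17.1 and 23.9 FPKM, against 5.74, 7.36 and 6.93 FPKM (1.47 ± 0.31). Both sham libraries lay far above all 3 sedentary ones. By limma 0 members were called higher and 0 lower, with adjusted p 0.0614, 0.0783 and 0.102 for the trio, where 0.0212% of all genes were called higher and 0% lower. At an unadjusted p under 0.05 there were 4 of the 10, and Gsta1, Gsta2 and Gsta3 ranked 4, 9 and 14 of 9425 genes by p. The other, Mgst1, ranked 622, so at least 622 genes passed that unadjusted threshold. Without sham replicate 1 the trio was called, Gsta1 at 1.45 with adjusted p 0.0177. In the authors' deposited table the log2 fold change of Gsta1 in sham over sedentary libraries was 1.76 (q 0.00135), and the authors' deposited table gave q 0.00233 for Gsta2 and 0.00719 for Gsta3. Macrophage markers, none of 7 at 0, summed to 504 to 1174 FPKM after sham, against 341 to 427 FPKM in sedentary libraries, and endothelial markers, none of 8 at 0, to 30.0 to 45.2 FPKM, against 62.9 to 85.6 FPKM. Their part in the difference was not tested.

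The choice of control therefore moved the trio's results after swimming too. Against sham, a comparison added after seeing the data, the 4 day swim libraries differed by 0.09 ± 0.22 for Gsta1, 0.11 ± 0.24 for Gsta2 and -0.02 ± 0.31 for Gsta3 (SE; limma adjusted p 0.737, 0.694 and 0.955). The 10 day swim libraries were higher for Gsta1 (0.71 ± 0.22) and Gsta2 (0.75 ± 0.24), with Gsta3 at 0.69 ± 0.31 (adjusted p 0.0810). In all, 7 of the 10 genes were higher than sham at 4 days, where 32.7% of all genes were, and 9 at 10 days, where 22.8% were. Gsta4, not called against sedentary fibroblasts, was among them, at 0.43 ± 0.17 and 0.47 ± 0.17 (limma adjusted p 0.0398 and 0.0413). With the length and GC trend removed Gsta4 was not called against sham (adjusted p 0.162 and 0.108). At 10 days of TAC all of the trio were called lower against sham, Gsta1 at -1.53 ± 0.22, Gsta2 at -1.56 ± 0.24 and Gsta3 at -2.41 ± 0.31, where Gsta3 alone of them was against sedentary fibroblasts. Gstm1 (-0.59 ± 0.27, adjusted p 0.0654) and Gstt1 (0.49 ± 0.29, adjusted p 0.145) were not called against sham.

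Among fibroblast groups, infarction went with the lowest mean of every member except Gsta4. Gsta4 averaged 0.523 FPKM after MI, against 0.371 FPKM after sham and 0.422 FPKM at 3 days of TAC. At 5 days after MI 7 of the 10 genes were called lower and 0 higher than in sedentary fibroblasts, where 2.34% of all genes were called lower and 8.93% higher. Gstm1 fell to 14.5 and 7.52 FPKM after MI, against 47.9, 52.5 and 45.8 FPKM in sedentary libraries (-2.11 ± 0.27, SE; limma adjusted p 4.06e-05). Gsta3 fell to 1.65 and 0.756 FPKM, against 5.74, 7.36 and 6.93 FPKM (-1.82 ± 0.31, adjusted p 0.000608). Both MI libraries of these genes lay far below all sedentary ones. Gsta1 fell to 0.406 and 0.258 FPKM, against 1.31, 1.55 and 1.42 FPKM, and Gstt1 to 3.72 and 1.91 FPKM, against 6.96, 5.52 and 9.72 FPKM. Gsta2, Gstm2 and Mgst1 differed by -0.93 ± 0.24, -0.75 ± 0.19 and -0.72 ± 0.22. Gsta4, Gstm5 and Gstp1 did not pass the test, Gstp1 having 13.1 and 14.5 FPKM after MI, against 15.9, 18.0 and 13.8 FPKM, groups that overlapped.

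These calls rest on 2 MI libraries. Without MI replicate 2, 2 genes were called, Gsta3 and Gstm1, without MI replicate 1 there were 4, and a fit of the MI and sedentary libraries alone called 4. The Mgst1 call was lost without any single library of either group, that of Gstm2 without sedentary replicate 1 and that of Gstt1 without sedentary replicate 3. Against sham, a comparison added after seeing the data, 6 of the 10 genes were lower and 0 higher, where 3.56% of all genes were lower and 6.32% higher. Gsta1 was then at -2.14 ± 0.25 and Gsta3 at -3.30 ± 0.33 (SE), and Gstm2 was not called (-0.38 ± 0.21, limma adjusted p 0.306). Macrophage markers, none of 7 at 0, summed to 632 to 636 FPKM after MI, against 341 to 427 FPKM in sedentary libraries, and fibroblast markers, none of 8 at 0, to 1719.9 to 2292 FPKM, against 2092 to 2699 FPKM. The mean log2(FPKM + 1) of the fibroblast markers was 7.29 and 6.58 after MI, against 6.63, 6.48 and 6.40. Endothelial markers, none of 8 at 0, summed to 50.6 to 57.2 FPKM, against 62.9 to 85.6 FPKM. The part of these cells in the result was not tested.

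Exercise and pressure overload were set side by side directly. At 10 days 6 of the 10 genes were called higher after swimming than after TAC and 0 lower, where 10.9% of all genes were called higher and 13.2% lower. Gsta3 had 26.1, 38.2 and 37.1 FPKM after swimming, against 4.86, 2.58 and 2.07 FPKM after TAC (3.10 ± 0.27, SE; limma adjusted p 1.75e-06). Gsta1 was higher by 2.23 ± 0.20, Gsta2 by 2.31 ± 0.21, Gstm1 by 1.78 ± 0.24, Mgst1 by 1.49 ± 0.20 and Gstt1 by 1.39 ± 0.26. Swim libraries lay above all TAC libraries in 8 of the 10 genes, these 6 with Gstm2 and Gstm5, as they did in 24.5% of all genes. Gstp1 had 33.1, 46.8 and 37.8 FPKM after swimming, against 34.7, 37.9 and 35.8 FPKM after TAC, groups that overlapped (0.10 ± 0.21, adjusted p 0.737). Without 10 day TAC replicate 1, Gsta4 was called lower after swimming. Fibroblast markers, none of 8 at 0, summed to 3241 to 3726 FPKM after swimming, against 949 to 1722 FPKM after TAC. Endothelial markers, none of 8 at 0, summed to 42.2 to 60.4 FPKM, against 73.6 to 142 FPKM, and mural cell markers, none of 7 at 0, to 15.1 to 22.6 FPKM, against 23.8 to 40.4 FPKM. Their part in the result was not tested.

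At the earlier times 7 of the 10 genes were called higher at 4 days of swimming than at 3 days of TAC and 0 lower, where 5.20% of all genes were called higher and 3.66% lower. Gstt1 had 28.7, 49.5 and 24.4 FPKM after swimming, against 10.7, 13.0 and 11.5 FPKM after TAC (1.41 ± 0.26, SE; limma adjusted p 0.00270), and Gstm1 had 94.7, 109.8 and 84.1 FPKM, against 40.2, 55.5 and 35.6 FPKM (1.13 ± 0.24). All swim libraries of both lay above all TAC libraries. The others called were Gsta1 at 0.87, Gsta2 at 0.81, Gsta3 at 0.99, Gstm2 at 0.60 and Gstm5 at 0.54. Without 4 day swim replicate 2 or 3 day TAC replicate 1, or in a fit of these groups alone, 2 genes were called. Each other library, left out, cost at least 1 call among those of Gsta2, Gsta3, Gstm2 and Gstm5. Fibroblast markers, none of 8 at 0, summed to 2658 to 3847 FPKM at 4 days of swimming, against 1120.2 to 2066 FPKM at 3 days of TAC, macrophage markers, none of 7 at 0, to 734 to 977 FPKM, against 400.4 to 612 FPKM, and erythroid markers, at most 1 at 0, to 11536 to 36925 FPKM, against 733 to 3296 FPKM. The mean log2(FPKM + 1) of fibroblast markers overlapped, at 6.56 to 7.10 against 6.13 to 6.74. So did that of macrophage markers, at 4.42 to 4.71 against 4.13 to 4.58. The part of these cells in the result was not tested.

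MI and 10 days of TAC, both disease models, differed in every member. After MI 10 of the 10 genes were called lower and 0 higher than after TAC, where 30.1% of all genes were called lower and 27.1% higher. Gstt1 had 3.72 and 1.91 FPKM after MI, against 11.0, 11.7 and 12.0 FPKM after TAC (-1.76 ± 0.29, SE; limma adjusted p 0.000105), and Gstp1 had 13.1 and 14.5 FPKM, against 34.7, 37.9 and 35.8 FPKM (-1.33 ± 0.23). MI libraries lay below all TAC libraries in all 10 genes, as they did in 37.9% of all genes. With the trend on the longest transcript 4 genes were called lower, Gsta3, Gstm2, Gstm5 and Gstt1, where 24.4% of all genes were, and without MI replicate 2 there were 6. Gsta1 and Gsta2 also lost their calls without MI replicate 1, and the trio lost them without 10 day TAC replicate 1. Endothelial markers, none of 8 at 0, summed to 50.6 to 57.2 FPKM after MI, against 73.6 to 142 FPKM after TAC, and erythroid markers, at most 1 at 0, to 46.4 to 132 FPKM, against 3068 to 6171 FPKM. Their part in the result was not tested.

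All 10 transferases were measured in both cardiomyocytes and fibroblasts of sedentary hearts. All except Gsta2 passed the test for a difference, in a comparison where most of all genes tested did so. Gsta4 was the most raised and Gsta3 the most lowered in cardiomyocytes. There 6 of the 10 genes were called higher and 3 lower, where 38.7% of 10371 genes were called higher and 38.6% lower. Gsta4 had 24.4, 26.5 and 18.6 FPKM in cardiomyocytes, against 0.592, 1.02 and 0.541 FPKM in fibroblasts (3.81 ± 0.17, SE; limma adjusted p 5.35e-14), and the highest of all 19 fibroblast libraries had 1.92 FPKM. Gstp1 had 52.8, 63.3 and 45.3 FPKM, against 15.9, 18.0 and 13.8 FPKM (1.69 ± 0.21), and Gstm5 had 8.93, 12.9 and 8.16 FPKM, against 3.04, 3.22 and 2.87 FPKM (1.42 ± 0.16). In these 3 genes every cardiomyocyte library lay well above every sedentary fibroblast library. Gsta3 went the other way, with 1.33, 0.716 and 0.985 FPKM in cardiomyocytes, against 5.74, 7.36 and 6.93 FPKM in fibroblasts (-1.94 ± 0.26), and Gstm1 and Gstt1 were lower as well (-0.83 ± 0.24 and -0.82 ± 0.24). Gsta1, Gstm2 and Mgst1 were higher by 0.67 ± 0.19, 0.41 ± 0.16 and 0.49 ± 0.19. The Gstm2 call was lost without cardiomyocyte replicate 2 or fibroblast replicate 3, and that of Mgst1 without fibroblast replicate 1. With the trend removed, or with libraries scaled to one median, Gstm2 and Mgst1 lost their calls, leaving 4 genes higher and 3 lower. With the title start that cardiomyocyte and fibroblast libraries share as a replicate block, 5 genes were higher and 3 lower, Gsta2 gaining a call and Gstm2 and Mgst1 losing theirs. With the trend on the longest transcript Gstm2 turned lower, to -0.39, and Gsta1 and Mgst1 were both at -0.10. The ratio of Gsta3 to Gsta1 was 0.250 to 0.461 in cardiomyocytes and 2.54 to 4.87 over the 19 fibroblast libraries.

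Near-identical copies limit what can be said of single genes, because how reads were shared between them is not given in the sources used here. Longest transcripts of Gsta1 and Gsta2 were 96.7% identical, those of Gsta1 and the predicted gene Gm3776 99.4%, and those of Gstp1 and Gstp2 91.3%. The ratio of Gsta1 to Gsta2 was 0.891 to 1.09 over the 19 fibroblast libraries, and the levels of Gsta1, Gsta2 and Gstp1 are uncertain as those of single genes. Over the 7 fibroblast group means of log2(FPKM + 1), the gene most like Gsta1 was Gm3776, and Gsta3 was most like Gsta2 (Pearson r 0.990). Gstm1 was most like its close relative Gstm3 (0.9998), whose longest transcript was 79.6% identical to its own. The level of Gstm1 may therefore be uncertain in the same way. After Gstm3, Gstm1 was most like Tcf21 (0.986), a transcription factor of fibroblasts. Gsta4 was most like Dmpk (0.976), a kinase of muscle, and Gpx3, a secreted glutathione peroxidase, was among the 3 genes most like Mgst1 (0.984). These values describe 7 points that share libraries and scaling.

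Counts of gene lists are read against the shares of all genes called, which were 38.2% higher and 26.3% lower at 4 days of swimming, 30.0% and 13.6% at 10 days of swimming, 31.3% and 25.8% at 3 days of TAC, 38.8% and 27.0% at 10 days of TAC, and 8.93% and 2.34% after MI. In cardiomyocytes against sedentary fibroblasts they were 38.7% and 38.6%. No test of a list against these shares was made. List counts are from FPKM as deposited, except where the trend is said to be removed. The other transferase genes and their relatives were a list of 24, of which 17 were tested. After swimming 13 higher and 2 lower were called at 4 days and 13 higher and 2 lower at 10 days, against sedentary fibroblasts. There were 10 higher and 2 lower at 3 days of TAC against sham, 10 higher and 4 lower at 10 days of TAC and 0 higher and 5 lower after MI against sedentary fibroblasts. The median log2 fold change was 0.87 after 10 days of swimming and -0.36 after MI, against 0.14 and 0.10 over all genes. With the length and GC trend removed, 12 were higher and 3 lower at 4 days of swimming. At 10 days of swimming 11 were then higher and 1 lower. Under TAC 6 were higher and 3 lower at 3 days, and 7 higher and 5 lower at 10 days. At 10 days of TAC 37.3% of all genes were then higher and 21.9% lower. After MI the counts stayed at 0 higher and 5 lower. The 5 genes lower after MI were Gstk1, Gstm3, Gstm4, Gstm6 and Gstm7, mostly of the mu class. Gstm3 averaged 9.71 ± 4.27 FPKM after MI (SD, n = 2), against 42.1 ± 3.30 FPKM in sedentary fibroblasts (n = 3; -2.06 ± 0.26, SE; limma adjusted p 3.33e-05). How reads were shared between Gstm3 and Gstm1 is not given, so this fall may not be separate from that of Gstm1. In cardiomyocytes 6 higher and 7 lower were called, and Mgst3, a membrane-bound relative, averaged 177 ± 33.8 FPKM, against 2.66 ± 1.58 FPKM in fibroblasts (n = 3 each; 5.67 ± 0.28).

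Among 23 tested genes that make, recycle or break down glutathione, 9 higher and 4 lower were called at 4 days and 6 higher and 1 lower at 10 days of swimming, 7 higher and 4 lower at 3 days and 6 higher and 8 lower at 10 days of TAC, and 1 higher and 2 lower after MI. With the trend removed, 6 were higher and 5 lower at 4 days, and 4 higher and 1 lower at 10 days of swimming. Under TAC 7 were then higher and 6 lower at 3 days, and 5 higher and 11 lower at 10 days. After MI 2 were higher and 2 lower. Both subunits of glutamate-cysteine ligase, the first step of glutathione synthesis, fell at 10 days of TAC. Gclm averaged 2.27 ± 0.575 FPKM after TAC, against 16.1 ± 12.6 FPKM in sedentary fibroblasts (SD, n = 3 each; -2.15 ± 0.45, SE; limma adjusted p 0.000604), and Gclc averaged 1.38 ± 0.527 FPKM, against 5.65 ± 1.69 FPKM (-1.47 ± 0.33). At 4 days of swimming, when 9 transferases were higher, Gclm and Gclc were lower, at -1.85 ± 0.45 and -1.29 ± 0.33. Dpep1, a peptidase that breaks down glutathione conjugates, was higher at 10 days of swimming (0.88 ± 0.31) and lower after MI (-1.73 ± 0.34).

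Of 7 tested transporters that can export conjugates, 0 higher and 4 lower were called at 4 days and 1 higher and 3 lower at 10 days of swimming, 0 higher and 4 lower at 3 days and 2 higher and 4 lower at 10 days of TAC, and 1 higher and 0 lower after MI. With the trend removed, 1 was higher and 4 lower at both times of swimming and both times of TAC. Abcc1, an exporter of glutathione conjugates, averaged 1.43 ± 0.555 FPKM at 4 days of swimming and 1.05 ± 0.365 FPKM at 10 days of TAC, against 7.27 ± 3.17 FPKM in sedentary fibroblasts (SD, n = 3 each; -1.71 ± 0.29 and -1.94 ± 0.29, SE; limma adjusted p 8.22e-05 and 2.70e-05). Of 19 tested partner enzymes in detoxification, 11 higher and 2 lower were called at 4 days and 11 higher and 0 lower at 10 days of swimming, 1 higher and 3 lower at 3 days and 8 higher and 3 lower at 10 days of TAC, and 2 higher and 1 lower after MI. With the trend removed, 10 were higher and 2 lower at 4 days, and 10 higher and 0 lower at 10 days of swimming. Under TAC 3 were then higher and 3 lower at 3 days, and 9 higher and 3 lower at 10 days. Ephx1, an epoxide hydrolase, averaged 69.4 ± 5.48 FPKM after 10 days of swimming, against 22.8 ± 1.71 FPKM in sedentary fibroblasts (1.57 ± 0.19), and was lower after MI (-0.79 ± 0.21).

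Of 10 tested regulators, 0 higher and 5 lower were called at 4 days and 0 higher and 1 lower at 10 days of swimming, 0 higher and 5 lower at 3 days and 0 higher and 7 lower at 10 days of TAC, and 1 higher and 1 lower after MI. With the trend removed, 0 were higher and 4 lower at 4 days, and 1 higher and 0 lower at 10 days of swimming. Under TAC 0 were then higher and 4 lower at 3 days, and 0 higher and 7 lower at 10 days. Nfe2l2, which encodes NRF2, averaged 14.1 ± 5.55 FPKM at 4 days of swimming and 12.4 ± 4.69 FPKM at 10 days of TAC, against 32.0 ± 3.94 FPKM in sedentary fibroblasts (SD, n = 3 each; -1.20 ± 0.29 and -1.36 ± 0.29, SE; limma adjusted p 0.00159 and 0.000589). Ahr, the receptor for aromatic compounds, rose after MI, to 3.54 ± 0.768 FPKM (n = 2), against 0.571 ± 0.178 FPKM in sedentary fibroblasts (n = 3; 1.53 ± 0.17, adjusted p 8.87e-06). In cardiomyocytes 2 higher and 8 lower were called, with Nfe2l2 at 5.45 ± 0.603 FPKM, against 32.0 ± 3.94 FPKM in fibroblasts.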

How the data were processed

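RNA-seq of cardiac fibroblasts and cardiomyocytes was given as a gene table of FPKM made by the authors with Cufflinks 2.0.2 on mm10, per the submitters' processing notes. The log2 fold changes, p-values and q-values cited from the authors' deposited table come from the authors' own comparisons of pooled groups. From the deposited FPKM, log2(FPKM + 1) was fitted with limma 3.58.1 (R 4.3.3; trend and robust options) on genes with at least 1 FPKM in at least 2 libraries. The 19 fibroblast libraries were fitted together (9425 genes), and all 22 libraries for cardiomyocytes against fibroblasts (10371 genes). Benjamini-Hochberg adjustment ran over all genes tested, and calls used adjusted p under 0.05. Replicates were grouped by the labels. A spline of 4 degrees of freedom on length and GC content (GENCODE M21 transcripts) gave the trend-removed values. Members and gene lists were chosen with earlier results of these data known, and the named genes outside the members are examples from these lists. Trends on the longest transcript and swapped controls were added after seeing the data. The 44 columns of confidence bounds and the authors' second table, with pooled controls, were not used. Scripts were tested on simulated data.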

Additional observations from a re-analysis of the deposited data

Results flagged for a closer look

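For 4 genes the change between the times of TAC differed from the change between the times of swimming, by a direct test of that difference. On the log2 scale the TAC change minus the swim change was -1.36 for Gsta1, -1.50 for Gsta2, -2.11 for Gsta3 and 0.79 for Gsta4 (limma adjusted p 0.0112, 0.00937, 0.00544 and 0.0431). The first time was day 3 for TAC and day 4 for swimming. The Gsta4 call was lost in 7 of the 12 fits that left out 1 library of these groups. Gsta1 and Gsta2 are near-identical copies, so their results may not be separate.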

How the results depend on the processing

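Settings other than leaving out a library left most members' results on the same side of the threshold and in the same direction, and leaving out each library turned the direction of no called member. Counts of the 10 members are listed here where they changed by more than 1.5-fold, with smaller changes named as such. Removing the length and GC trend gave 1 lower at 10 days of TAC against sedentary and 1 lower at 10 days of swimming against TAC. Its smaller changes were to 8 higher at 4 days of swimming, 4 higher at 10 days of TAC and 4 higher in cardiomyocytes. Another was to 3 lower at 10 against 3 days of TAC. Fitting only the groups compared gave 4 lower after MI and 2 higher at 4 days of swimming against 3 days of TAC. The higher call of the TAC against swim course was 0 with an added value of 0.1, 0 without the filter, 0 with only the groups compared and 0 with the trend on the longest transcript.

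The trend on the longest transcript gave 2 higher at 3 days of TAC, 1 higher at 10 days of TAC, 1 lower at 4 days and 1 lower at 10 days of swimming, 2 lower at 10 against 3 days of TAC, 4 lower after MI against TAC and 3 higher in cardiomyocytes. It turned Gsta4 to -0.68 at 3 days of TAC, -0.11 at 10 days of TAC, -0.76 at 4 days and -0.44 at 10 days of swimming, and at 10 days of TAC it turned Gstm2 to -0.12 and Gstt1 to -0.24. After MI against TAC it turned Gsta1 to 0.0046 and Gsta2 to 0.0089, and in cardiomyocytes Gsta1 to -0.10, Gstm2 to -0.39 and Mgst1 to -0.10. With sedentary in place of sham, 3 day TAC had 7 higher and 0 lower, with Gsta1 at 0.49, Gsta2 at 0.53 and Gsta3 at 0.46, and with sham in place of sedentary Gsta3 was at -0.024 after 4 days of swimming. The cause was not tested.

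Leaving out each library gave 0 to 3 lower at 3 days of TAC, 2 to 7 lower after MI, 0 to 3 higher after sham, 2 to 4 lower at 10 against 3 days of TAC, 0 to 1 lower at 10 days of swimming against TAC, 2 to 7 higher at 4 days of swimming against 3 days of TAC, 6 to 10 lower after MI against TAC and 0 to 1 higher for the TAC against swim course. Cardiomyocyte and fibroblast libraries share the starts of their titles, 1 of which reads as a date, and same-titled libraries had correlations of their deviations of 0.243, 0.0558 and 0.312, each cardiomyocyte library correlating best with its own title. With the replicate block 5 members were higher and 3 lower in cardiomyocytes. The MI and sham groups have 2 libraries each, absolute depth is unknown, and FPKM near 1 or below, as for Gsta4 in fibroblasts, carry few reads.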
